A study of Mus musculus with 6 samples.

Results

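Kinesin motor genes were examined in whole retina, as the 32 genes whose symbol is Kif followed by a number and which had at least 10 counts in 3 or more of the 6 libraries. The symbol rule matched 36 of the 31169 genes in the count table. The retinas came from male C57BL/6 mice injected in both eyes at 1 month of age and harvested 4 weeks later, at 2 months. The control group held 3 retinas injected with 1 µL of saline, and the other group held 3 retinas injected with 1 µL of 15 µm polystyrene microbeads, which block the outflow of aqueous humor and raise intraocular pressure. Poly(A) RNA was sequenced from each retina. Nothing in the labels says whether the retinas of a group came from separate animals, so the p-values measure the spread between these samples, which may be technical in part.

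Kinesins are motor proteins that use ATP to move along microtubules, in most families toward the plus end, which in an axon points away from the cell body. The neuronal kinesins carry synaptic vesicle precursors, mitochondria and neurofilaments into the axons of retinal ganglion cells (RGCs), the neurons whose axons form the optic nerve, and transport in these axons is impaired in glaucoma models. Photoreceptors depend on a further kinesin, the heterotrimer of KIF3A, KIF3B and the accessory protein KAP3, which carries cargo into the cilium that bears the outer segment. A separate set of kinesins builds the mitotic spindle and divides the cell at cytokinesis, and in the adult retina most neurons are no longer dividing.

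The total count per library was 36085737, 46481382 and 37546884 in saline retinas 1 to 3, and 19834366, 13574949 and 15647739 in microbead retinas 1 to 3, so every microbead library was the shallower. The saline libraries carried one series of names and the microbead libraries another, so a difference between the series cannot be told apart from one between injections. The 8 rod markers summed to between 53260.2 and 81013 CPM (counts per 1000000, scaled by TMM) in the 6 libraries, which fits the label of retina. The 10 RGC markers summed to 370.4 CPM in saline retina 1 and to between 905 and 1369 CPM in the other 5 libraries. The 5 lens markers found in the table summed to 27.9, 0.518 and 363 CPM in saline retinas 1 to 3 and to at most 0.309 CPM in the microbead retinas. The 6 pigment epithelium markers summed to 11.1, 53.2 and 230.8 CPM in saline retinas 1 to 3 and to 117.9, 98.6 and 110.7 CPM in microbead retinas 1 to 3. In bulk RNA, fewer cells of a type and less RNA per cell cannot be told apart.

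Per kilobase of exon, the retina was led by the axonal motors. Averaged over the 6 libraries, Kif1a stood at 65.2 ± 22.4 CPM per kb and Kif1b at 56.7 ± 12.4 CPM per kb (SD over both groups together, n = 6). Kif5c at 35.2 ± 9.47, Kif5a at 35 ± 12.6, Kif21a at 31.2 ± 4.79, Kif21b at 30.7 ± 11.7, Kif3a at 23.8 ± 3.32 and Kif3b at 17.5 ± 1.77 CPM per kb came next, followed by Kif5b at 15.4 ± 5.82. Between Kif1b and Kif5c and between Kif3a and Kif3b the step was larger than either SD, and the other neighbours in this order differed by less than the larger of their SDs. Kif1b held from 25.1 to 36.4% of the summed CPM of the 32 genes in a library. On the CPM scale, 13 of the 32 genes had a mean of at least 50 CPM and 16 had a mean under 10 CPM, with all 8 spindle kinesins that were kept among the latter.

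**Figure D1:**
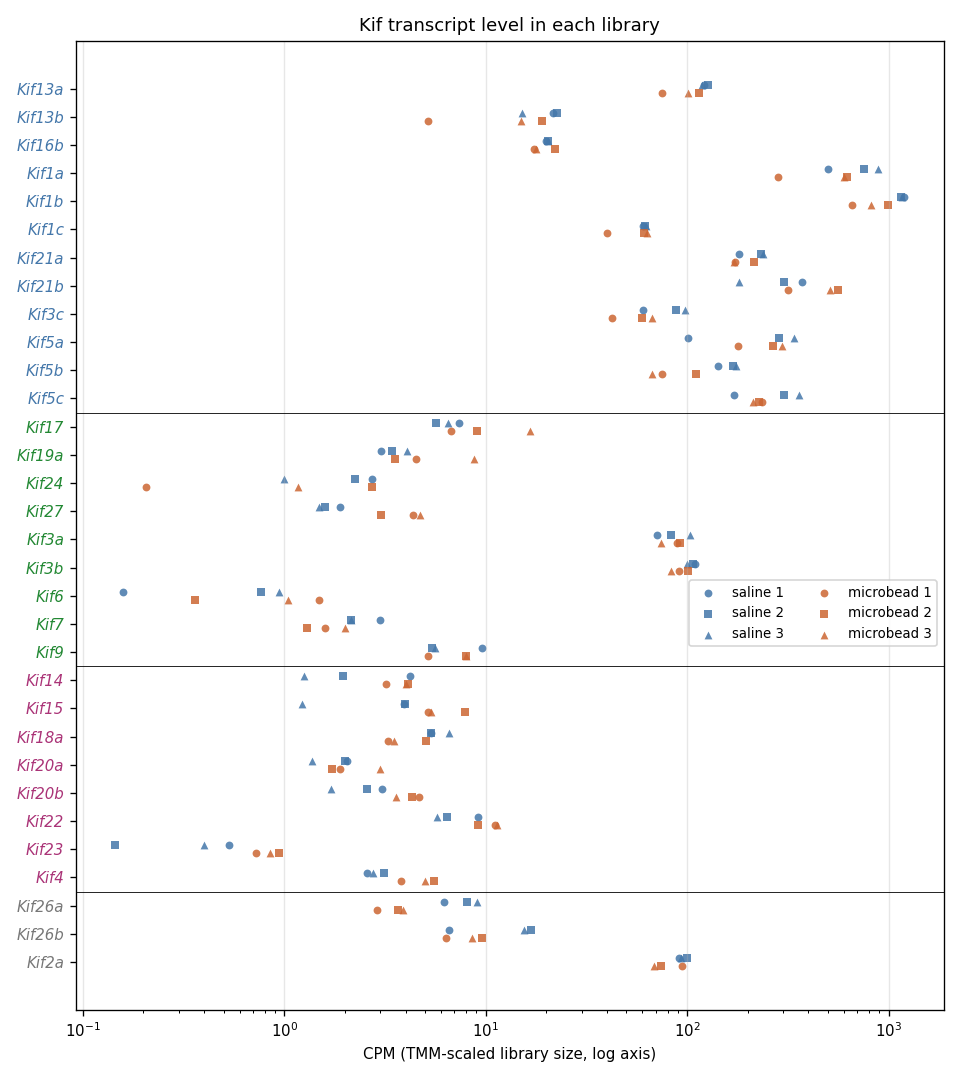
CPM of each of the 32 Kif genes on a log axis in the 3 saline and the 3 microbead retinas, one point per library, with the genes ordered by role. The transport motors Kif1a and Kif1b reach 283 to 1198 CPM and the spindle kinesins stay under 12 CPM, and the groups of points overlap for 20 of the 32 genes.

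The question for these genes was whether the retina expressed its kinesins differently after microbead injection. Of the 32 genes, 3 had an adjusted p-value under 0.05 in edgeR's quasi-likelihood test, against 12.8% of the 17707 genes tested. Kif27 was higher, where 6.46% of all genes tested were called higher, and Kif5b and Kif26a were lower, where 6.31% were called lower. With 9.38% of the Kif genes called, their share was close to that of all genes. The median log2 fold change of the 32 genes was -0.13, beside -0.03 over all genes tested, and 14 of the 32 values were positive. At an unadjusted p-value under 0.05 there were 8, against 31.4% of all genes tested. Of these, Kif27, Kif4, Kif21b and Kif15 were higher (15.3% of all genes) and Kif26a, Kif5b, Kif1b and Kif3c lower (16.2% of all genes). All 3 microbead retinas lay above all 3 saline retinas for 6 genes (18.8%), as for 18.8% of all genes, and below them for 6 genes (18.8%), as for 18.9% of all genes. Summed over the 32 genes, the level was 3291, 3885 and 4026 CPM in the saline retinas and 2441, 3618 and 3263 CPM in the microbead retinas, with overlap between the groups.

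**Figure D2:**
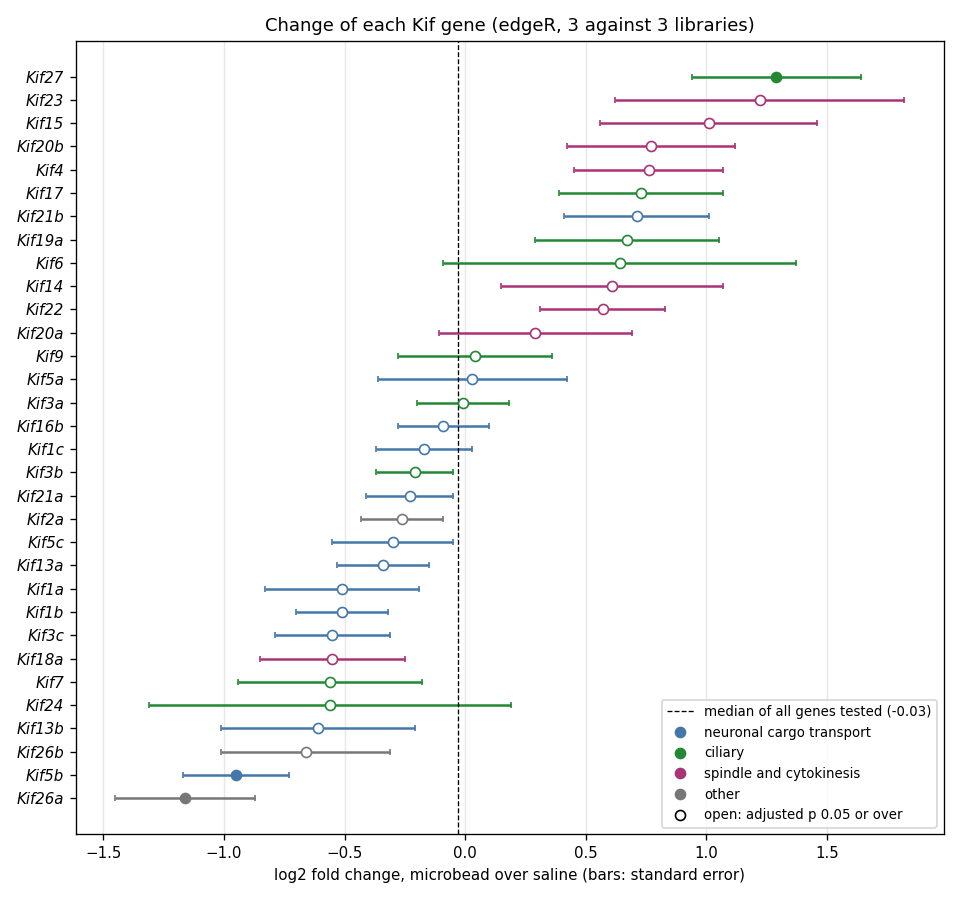
Log2 fold change of each Kif gene, microbead against saline, with bars of 1 standard error from edgeR, ordered by value and coloured by role, with filled points for the 3 genes past the adjusted threshold and a dashed line at the median of all genes tested. Kif5b at -0.95 and Kif26a at -1.16 lie below 0 and Kif27 at 1.29 above it, and 7 of the 8 spindle kinesins have positive values that did not pass the test.

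Of the 12 genes that carry cargo in neurons, 1 fell, none rose and 11 did not pass the test, with a median log2 fold change of -0.32. The share called was 8.33%, beside 12.8% of all genes tested. Kif5b (ENSMUSG00000006740.13), on GRCm38 chr18:6201002-6242174 on the minus strand, encodes the ubiquitous heavy chain of conventional kinesin. It was measured at 142, 169 and 174 CPM in the saline retinas and at 74.7, 111 and 66.7 CPM in the microbead retinas. The highest microbead value lay under the lowest saline value, and the mean went from 162 ± 17.2 to 84.1 ± 23.6 CPM (SD, n = 3 each). Kif5b fell by 0.95 on the log2 scale (SE 0.22, adjusted p = 0.0267), a change of -48.1%. The call was lost without saline retina 2 (adjusted p = 0.0923), without microbead retina 1 (0.0781) and without microbead retina 3 (0.115), while the log2 fold change stayed between -1.18 and -0.81 whichever library was left out.

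Its neuron-enriched paralogs Kif5a and Kif5c did not pass the test. Kif5a, the heavy chain linked to neurofilament transport, had 101, 286 and 339 CPM in the saline retinas and 179, 268 and 295 CPM in the microbead retinas. The spread within the saline group covered the whole microbead range, and the log2 fold change was 0.03 (SE 0.39, adjusted p = 0.968). The lowest Kif5a value was in saline retina 1, the library with the lowest RGC marker sum, and without that library the log2 fold change of Kif5a was -0.34. The part of the RGC markers in the level of Kif5a was not tested. For Kif5c the values were 171, 301 and 359 CPM against 236, 228 and 212 CPM, again with overlap, at a log2 fold change of -0.30 (SE 0.25, adjusted p = 0.455). Its lowest value was in saline retina 1 as well. Without that library the log2 fold change of Kif5c was -0.55 (adjusted p = 0.0837), and without saline retina 3 it was -0.07.

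Within the Kif5 genes, compared per kilobase, Kif5b made up 31.7, 20.3 and 18.1% in the saline retinas and 13.8, 16.5 and 10.4% in the microbead retinas. The groups did not overlap, but with 3 retinas against 3 an exact two-sided permutation test cannot give a p-value under 0.1, and the 9 shares tested in the Kif5, Kif1 and Kif3 genes gave p = 0.1 for Kif5b (0.45 after Benjamini-Hochberg adjustment). Kif5a made up 25.7, 39.2 and 40.2% against 37.6, 45.6 and 52.6%, a difference in means of 10.2 percentage points that did not pass the exact permutation test (p = 0.3, adjusted 0.54). Without saline retina 1 the difference was 5.54 percentage points for Kif5a and -5.65 for Kif5b, from -9.81 for Kif5b with all libraries, and without microbead retina 3 it was 6.55 for Kif5a. The share of Kif5c differed by -0.395 percentage points (41.6 ± 1.1 against 41.2 ± 6.44%, SD, n = 3 each).

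**Figure D3:**
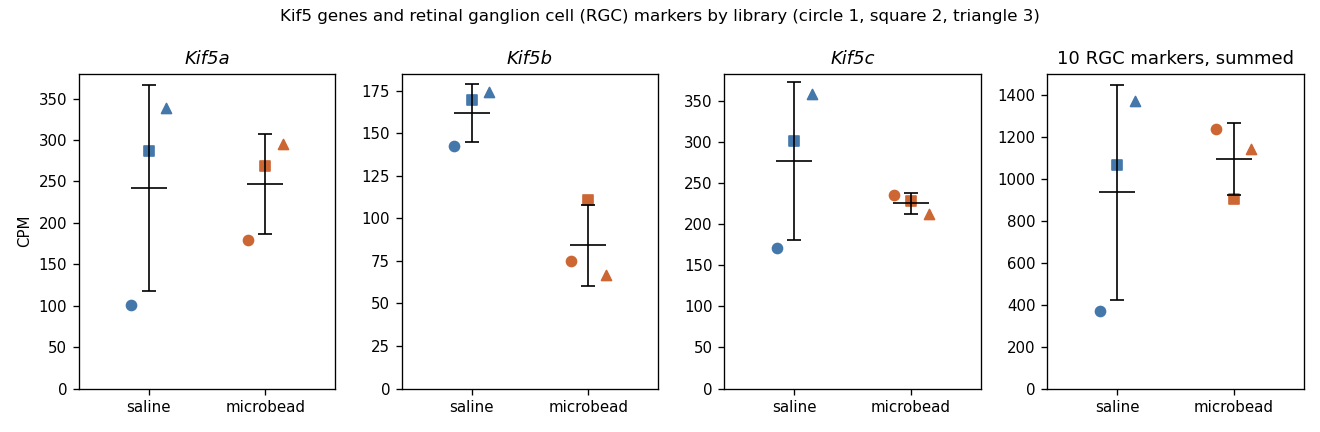
CPM of Kif5a, Kif5b and Kif5c and summed CPM of the 10 RGC markers in each of the 6 libraries, with points for libraries, a horizontal line for the mean of each group and bars of 1 SD. Kif5b separates the groups, with 142 CPM as its lowest saline value and 111 CPM as its highest microbead value, whereas Kif5a and the RGC marker sum both have their lowest value in saline retina 1.

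The kinesin-3 motors that carry synaptic vesicle precursors were the most abundant members. Kif1a, the main carrier of these vesicles, had 498, 758 and 888 CPM in the saline retinas and 283, 619 and 603.6 CPM in the microbead retinas. Its groups overlapped, with the lowest value in microbead retina 1, and the log2 fold change was -0.51 (SE 0.32, adjusted p = 0.303). Without microbead retina 1 it was -0.23, and without saline retina 3 it was -0.33. Kif1b, with splice forms that carry mitochondria or synaptic vesicle precursors, was tightly grouped in the saline retinas at 1198, 1153 and 1168 CPM (a coefficient of variation of 1.94%) and lay at 659, 989 and 819 CPM in the microbead retinas. All microbead values lay below all saline values, and the log2 fold change of -0.51 (SE 0.19) did not pass the threshold (adjusted p = 0.104). Kif1c, a widely expressed relative, had 60.4, 61.6 and 62.4 CPM against 39.8, 60.9 and 62.9 CPM, so that microbead retina 1 alone lay apart. Without that library its log2 fold change was 0.01, from -0.17 with all libraries. As a share of the Kif1 genes per kilobase, Kif1a was 49.8 ± 7.71% in saline and 48.7 ± 6.51% in microbead retinas and Kif1b 44.6 ± 7.01% and 44.3 ± 6.26% (SD, n = 3 each).

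Kif13a and Kif13b are kinesin-3 motors of endosomes and membrane cargo. Kif13a had 122, 127 and 118 CPM in the saline retinas and 74.8, 114 and 101 CPM in the microbead retinas, without overlap and without passing the test (log2 fold change -0.34, SE 0.19, adjusted p = 0.253). Kif13b had 21.6, 22.5 and 15.2 CPM against 5.2, 19 and 14.9 CPM, with overlap and with microbead retina 1 lowest (log2 fold change -0.61, SE 0.4, adjusted p = 0.331, and -0.23 without that library or -0.96 without microbead retina 2). Kif16b, a motor of early endosomes, varied least between the saline retinas of all 32 genes (19.9, 20.3 and 20.4 CPM, a coefficient of variation of 1.35%) and had 17.3, 22 and 17.8 CPM in the microbead retinas.

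Kif21a and Kif21b are kinesin-4 motors that regulate microtubule growth in axons and dendrites, and neither passed the test. For Kif21a the values were 181, 233 and 239 CPM in the saline retinas and 172, 215 and 171 CPM in the microbead retinas. For Kif21b they were 371, 301 and 181 CPM in the saline retinas and 317, 563 and 515 CPM in the microbead retinas. The Kif21b groups overlapped because microbead retina 1 lay between saline retinas 1 and 2, and the log2 fold change of 0.71 (SE 0.3) did not pass the threshold (adjusted p = 0.135). Of 11 alternative fits with all 6 libraries it did in 1, the one without the filter on low counts (adjusted p = 0.0476). The adjusted p-value rose to 0.193 in the others, and Kif21b was not called with any library left out. The ratio of Kif21b to Kif21a on the CPM scale, looked at after the values were seen and not tested, was 2.05, 1.29 and 0.757 in the saline and 1.84, 2.61 and 3.01 in the microbead retinas. Kif3c, a kinesin-2 subunit found in neurons, had 60.7, 88.4 and 98.1 CPM against 42.3, 59.9 and 67 CPM (log2 fold change -0.55, SE 0.24, adjusted p = 0.148). Of its exon bases, 40.7% are overlapped by genes of the opposite strand.

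Of the 9 ciliary genes, Kif27 rose, none fell and 8 did not pass the test, and their median log2 fold change was 0.04. The share called was 11.1%, beside 12.8% of all genes tested. Kif3a and Kif3b encode the motor subunits of the heterotrimer of photoreceptor cilia. Kif3a had 70.9, 83.4 and 103 CPM in the saline retinas and 88.7, 92.6 and 74.5 CPM in the microbead retinas, with a log2 fold change of -0.01 (SE 0.19, adjusted p = 0.981). Kif3b had 109.6, 108 and 100.2 CPM against 91.1, 101 and 83.4 CPM, with a log2 fold change of -0.21 (SE 0.16, adjusted p = 0.408). The groups overlapped for both, and changes about as small as these standard errors were not detectable with 3 retinas a group. Larger changes can also miss the threshold, as did that of Kif1b (log2 fold change -0.51, SE 0.19, adjusted p = 0.104).

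Kif27 (ENSMUSG00000060176.3), on chr13:58287502-58359122 on the minus strand, encodes a kinesin-4 protein known for its part in building motile cilia. It was measured at 1.89, 1.6 and 1.48 CPM in the saline retinas and at 4.37, 3.03 and 4.74 CPM in the microbead retinas. The groups did not overlap, and the means were 1.66 ± 0.207 and 4.05 ± 0.9 CPM (SD, n = 3 each). Kif27 rose by 1.29 on the log2 scale (SE 0.35, adjusted p = 0.0423), a change of 145%. Its adjusted p-value was 0.0562 without the filter on low counts, and when libraries were left out in turn it ran from 0.0462 to 0.151 and stayed under the threshold only without saline retina 1. Opposite-strand genes overlap 6.37% of its exon bases, and the strand setting used in counting is not given in the sources used here.

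Kif17, the homodimeric kinesin-2 that moves cargo in dendrites and cilia, had 7.36, 5.68 and 6.51 CPM in the saline retinas and 6.74, 9.1 and 16.6 CPM in the microbead retinas. Microbead retina 3 stood highest, and the log2 fold change of 0.73 (SE 0.34) had an adjusted p-value of 0.174. Without that library it was 0.27. Kif7, a regulator of Hedgehog signaling at the ciliary tip, had 3, 2.14 and 2.14 CPM against 1.6, 1.3 and 2.01 CPM, without overlap (adjusted p = 0.346), and 20.3% of its exon bases are overlapped on the opposite strand. The remaining ciliary genes were Kif19a, which shortens microtubules at the tips of motile cilia, Kif6 and Kif9 of motile cilia, and Kif24, which restrains cilium growth. Their groups overlapped, with log2 fold changes from -0.56 for Kif24 to 0.67 for Kif19a. With 1 library left out these ran from -1.54 (without microbead retina 2) to -0.03 (without microbead retina 1) for Kif24, and Kif19a was at 0.19 without microbead retina 3. Microbead retina 1 held 0.206 CPM of Kif24, near the 0.154 CPM that 3 counts make in that library, whereas the other libraries held 0.999 to 2.74 CPM.

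Of the 8 spindle and cytokinesis kinesins that were kept, none passed the test, while 7 had positive log2 fold changes and their median was 0.68. In 5 of the 8 every microbead value lay above every saline value, which held for 18.8% of all genes tested. Kif15, which helps to hold the spindle poles apart, had 3.93, 3.98 and 1.23 CPM in the saline retinas and 5.2, 7.94 and 5.33 CPM in the microbead retinas (log2 fold change 1.01, SE 0.45, adjusted p = 0.158). Kif4, a chromokinesin that acts on chromosome arms and the midzone, had 2.58, 3.11 and 2.77 CPM against 3.81, 5.56 and 5 CPM (log2 fold change 0.76, SE 0.31, adjusted p = 0.127). In both, all microbead values exceeded all saline values. The same separation was seen for Kif20b, a cytokinesis motor (3.05, 2.59 and 1.71 against 4.68, 4.33 and 3.57 CPM), for Kif22, a chromokinesin (9.16, 6.43 and 5.73 against 11.1, 9.17 and 11.4 CPM), and for Kif23, a subunit of centralspindlin (0.531, 0.145 and 0.399 against 0.721, 0.939 and 0.845 CPM). The Kif22 groups were parted narrowly, at 9.16 and 9.17 CPM, and none of these 3 passed the test (adjusted p = 0.161, 0.169 and 0.2). Kif18a, which aligns chromosomes, went the other way at 5.37, 5.37 and 6.56 against 3.29, 5.05 and 3.51 CPM (adjusted p = 0.242). Kif14 and Kif20a, both of cytokinesis, had overlapping groups, with log2 fold changes of 0.61 and 0.29. Opposite-strand genes overlap 29.3% of the exon bases of Kif20a and 15.1% of those of Kif4.

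Together with Kif18b, Kif2b and Kif2c, which were under the count minimum, the spindle group summed to 31.4, 25.9 and 21.2 CPM in the saline retinas. In the microbead retinas it summed to 34.1, 39.1 and 37 CPM. Of 15 genes that mark dividing cells, 10 passed the filter on low counts, with a median log2 fold change of 0.36, and Ccna2 (cyclin A2) rose, from 29.3, 18.5 and 6.45 CPM to 52.3, 47.1 and 58.8 CPM (log2 fold change 1.54, SE 0.43, adjusted p = 0.0455). The other 9 of these 10 did not pass the test. Mki67, Top2a, Bub1, Aurkb and Ccnb1 did not pass the filter, so they were not tested and are not in that median. Mki67, the defining mark of cycling cells, was at 1.46, 0.0415 and 0.0571 CPM in the saline retinas and at 0, 0.289 and 0 CPM in the microbead retinas. Top2a was at 1.62, 0.27 and 0.143 CPM in the saline and 0, 0.0722 and 0 CPM in the microbead retinas. Without Ccna2 the dividing-cell genes summed to 20.5, 14.7 and 9.56 CPM against 16.2, 15.2 and 23.5 CPM, with overlap. The part of cell division in the levels of the spindle kinesins was not tested.

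Promoter windows are printed for the 5 spindle kinesins whose microbead values all lay above the saline values, none of which passed the test. Each window holds TTTGAA, the letters of the cell-cycle homology element. The genes were picked by these values, and a link between the motif and the change after injection was not tested. The windows of 80 bases hold the 50 bases before the start of transcription and the 30 from it onward, read 5′ to 3′ on the strand of the gene (RefSeq, GRCm38.p6), with capitals marking TTTGAA or its reverse complement TTCAAA.
Kif4, chrX:100626015-100626094, plus strand: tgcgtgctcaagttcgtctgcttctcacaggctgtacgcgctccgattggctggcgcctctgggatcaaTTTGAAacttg
Kif15, chr9:122951031-122951110, plus strand: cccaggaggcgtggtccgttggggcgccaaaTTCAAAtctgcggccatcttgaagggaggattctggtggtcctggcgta
Kif20b, chr19:34922308-34922387, plus strand: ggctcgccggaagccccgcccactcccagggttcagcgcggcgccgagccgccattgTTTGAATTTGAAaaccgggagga
Kif22, chr7:127042391-127042470, minus strand: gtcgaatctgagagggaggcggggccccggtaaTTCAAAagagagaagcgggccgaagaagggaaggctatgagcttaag
Kif23, chr9:61946770-61946849, minus strand: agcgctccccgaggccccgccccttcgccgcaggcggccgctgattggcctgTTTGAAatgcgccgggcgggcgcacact

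In Kif20b TTTGAA begins 7 and 13 bases after the first transcribed base, in Kif23 2 bases and in Kif4 19 bases after it, while in Kif15 and Kif22 it lies on the other strand, 19 and 17 bases before it. A promoter was found for 26 of the 32 genes, with 30 promoters in all. A Kif gene was counted as holding a motif if any of its promoters did, whereas the percentages below are of single promoters. Over promoters of 300 bases (250 before the start and 50 after it), TTTGAA on either strand was found in 6 of 7 spindle kinesins and in 3 of 19 other Kif genes, against 17.9% of all 32851 promoters. These 6 include Kif14, whose groups overlapped and which holds it 228 bases before the start. The CCAAT motif occurred in 4 of 7 and 7 of 19 (37.4% of all promoters), and GGGCGG in 4 of 7 and 15 of 19 (35.7%). The motifs were chosen with earlier results known. These are matches of letters, and binding was not measured.

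Of the 3 genes outside these roles, Kif26a fell (33.3%, beside 12.8% of all genes tested) and Kif26b and Kif2a did not pass the test. Kif26a (ENSMUSG00000021294.7), on chr12:112146208-112181747 on the plus strand, encodes a kinesin-11 protein that has lost ATPase activity and acts in signaling during the growth of enteric neurons. It was measured at 6.19, 8.07 and 9.1 CPM in the saline retinas and at 2.88, 3.68 and 3.9 CPM in the microbead retinas. The groups stood well apart, with means of 7.79 ± 1.48 and 3.49 ± 0.535 CPM (SD, n = 3 each). Kif26a fell by 1.16 on the log2 scale (SE 0.29, adjusted p = 0.0333), a change of -55.3%. With counts offset for GC and length the log2 fold change was -0.87 and the adjusted p-value 0.0508. The call held without saline retina 1 and was lost without any one of the other 5 libraries (adjusted p = 0.022 to 0.119 over the 6 fits). Its promoter is rich in G and C. The 250 bases before the start are printed with GGGCGG on either strand in capitals.
Kif26a, chr12:112145958-112146207, plus strand: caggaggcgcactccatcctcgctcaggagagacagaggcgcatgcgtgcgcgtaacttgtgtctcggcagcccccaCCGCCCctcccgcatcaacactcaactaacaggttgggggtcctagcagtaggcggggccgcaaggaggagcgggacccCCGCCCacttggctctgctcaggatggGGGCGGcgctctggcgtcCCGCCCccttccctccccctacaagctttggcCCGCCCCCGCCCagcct

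GGGCGG or its reverse complement starts at 6 places in this window, at 173, 94, 67, 49, 17 and 11 bases before the start. Kif26b, its close relative, had 6.56, 16.8 and 15.5 CPM in the saline retinas and 6.38, 9.6 and 8.58 CPM in the microbead retinas. The low value of saline retina 1 joined it to the microbead group, and the log2 fold change was -0.66 (SE 0.35, adjusted p = 0.233). Without saline retina 1 it was -0.98 (adjusted p = 0.032). Kif2a, a kinesin-13 that takes microtubules apart and trims axon branches, had 91.6, 99.8 and 93.2 CPM against 93.8, 74.4 and 68.6 CPM (log2 fold change -0.26, SE 0.17, adjusted p = 0.33), with 19.2% of its exon bases overlapped on the opposite strand.

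The 4 Kif genes under the count minimum were Kif12, Kif18b, Kif2b and Kif2c. Kif18b had 6, 10 and 3 counts in the saline and 4, 4 and 4 counts in the microbead libraries, and Kif2c had 12, 3 and 3 against 0, 0 and 2 counts. Kif2b was counted 3 times in saline library 1 alone and Kif12 2 times in microbead library 3 alone. The third-highest count was 4 for Kif18b, the nearest gene outside the minimum, and 14 for Kif23, the nearest inside it. Kif11, Kif25 and Kif28 had no row under these symbols in the count table.

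Calls were also counted among motors that the symbol rule leaves out, partners of kinesins, dynein and dynactin, and microtubule proteins. Of the 4 motors outside the rule, 1 was called (25%), beside 12.8% of all genes tested. Kifc2, a kinesin-14 of neurons that moves toward the minus end, rose from 53.1, 58.3 and 44.5 CPM in the saline retinas to 159, 149 and 218 CPM in the microbead retinas. Every microbead value was above 2 times every saline value, at a log2 fold change of 1.75 (SE 0.2, adjusted p = 0.00514). Kifc1, Kifc3 and Cenpe did not pass the test (log2 fold changes of -0.31, -0.25 and 0.05).

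Among 24 light chains, adaptors and regulators of kinesin, 1 rose, 1 fell and 22 did not pass the test. The share called was 8.33%, beside 12.8% of all genes tested. Arl8a, a small GTPase that links lysosomes and synaptic vesicle precursors to kinesins, rose from 95.4, 112 and 133 CPM to 208, 185 and 209 CPM (log2 fold change 0.83, adjusted p = 0.0227). Klc3, a light chain, fell from 103, 92.9 and 117 CPM to 65.2, 48.6 and 76.4 CPM (log2 fold change -0.72, adjusted p = 0.0468). The main neuronal light chains Klc1 and Klc2 had log2 fold changes of 0.09 (adjusted p = 0.773) and 0.31 (0.329). Kifap3, which encodes the KAP3 subunit of the ciliary motor, had 131, 175 and 217 CPM against 122, 129 and 125 CPM, without overlap (log2 fold change -0.48, adjusted p = 0.142). None of 19 genes of intraflagellar transport passed the test, with a median log2 fold change of 0.25.

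Cytoplasmic dynein is the motor of return transport to the cell body, and dynactin its cofactor. Of 27 dynein and dynactin genes, 2 rose and 3 fell, a share of 18.5% beside the 12.8% of all genes, and their median log2 fold change was -0.15. Dynll2, a light chain, fell from 318, 405 and 465 CPM to 164, 137 and 172 CPM (log2 fold change -1.33, adjusted p = 0.0103), and Dynlrb1, another light chain, rose from 100.3, 95.3 and 119 CPM to 315, 212 and 207 CPM (1.22, adjusted p = 0.0144). Pafah1b1, which encodes the dynein regulator LIS1, fell (log2 fold change -0.77, adjusted p = 0.0315), as did Actr10 of dynactin (-0.73, adjusted p = 0.0376), while Dctn6 rose (0.72). The heavy chain Dync1h1 had 520.1, 618 and 796 CPM against 270.0, 436 and 444 CPM, without overlap, and missed the threshold (log2 fold change -0.75, SE 0.24, adjusted p = 0.0709). Of 28 tubulins and microtubule-associated proteins, Tuba1b (log2 fold change -0.92, adjusted p = 0.0227) and Tuba1c (-1.72, adjusted p = 0.0486) fell and 26 did not pass the test. The share called among these was 7.14%.

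Kinesin levels also varied with the library within a group. In microbead retina 1, 25 of the 32 genes lay below the mean of the other 2 microbead retinas, by a median of 0.36 on the log2 scale, whereas the median over all genes was -0.02. In microbead retina 2 the median was 0.22, with 8 genes below, and in microbead retina 3 it was 0.12, with 12 below. The largest shortfalls in microbead retina 1 were in Kif24 (-2.75), Kif13b (-1.69) and Kif1a (-1.11). These deviations varied with gene length. Over the 32 genes, Spearman's rho with exon length was -0.39 in microbead retina 1, 0.73 in microbead retina 2 and -0.30 in microbead retina 3, and over all 17649 genes with a length it was -0.27, 0.34 and 0.01. In the saline retinas the rho of the 32 genes was 0.02, 0.32 and -0.09. These correlations are across genes of the same library, which are not independent. The retinas of a group are tied as well. Each was set against the mean of the other 2, so a high value in one lowers the deviations of the others. The log2 fold changes of the 32 genes had a rho of -0.33 with length, against -0.14 over all genes, and the part of gene length in the fold changes was not tested beyond the fit offset for GC and length.

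**Figure D4:**
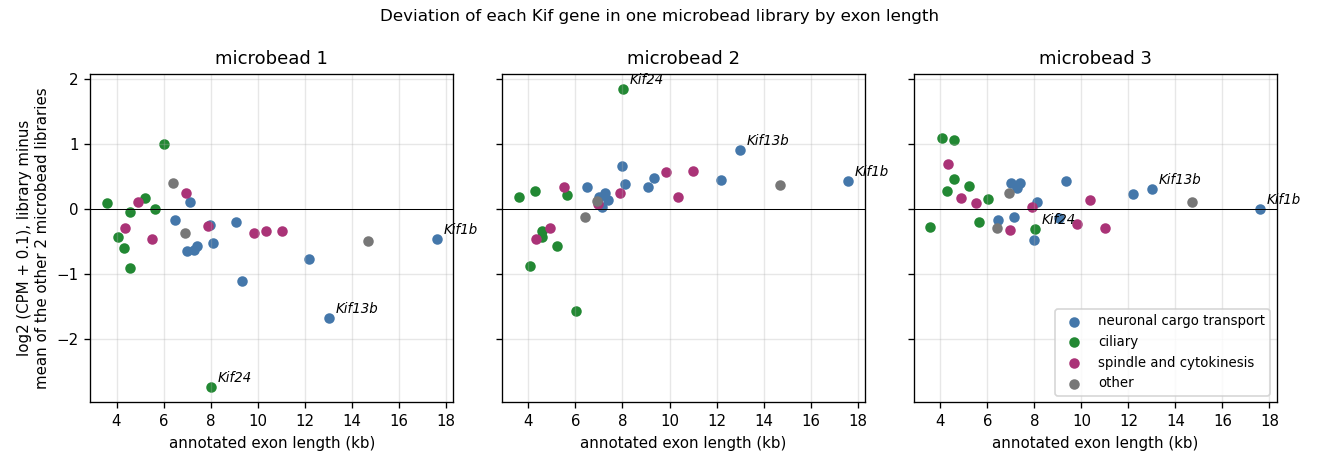
Deviation of each Kif gene in each microbead retina from the mean of the other 2 microbead retinas (log2 of CPM plus 0.1) against the exon length of the gene in kilobases, one panel per retina, coloured by role. The points slope down in retina 1 (rho = -0.39) and up in retina 2 (rho = 0.73).

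**Figure D5:**
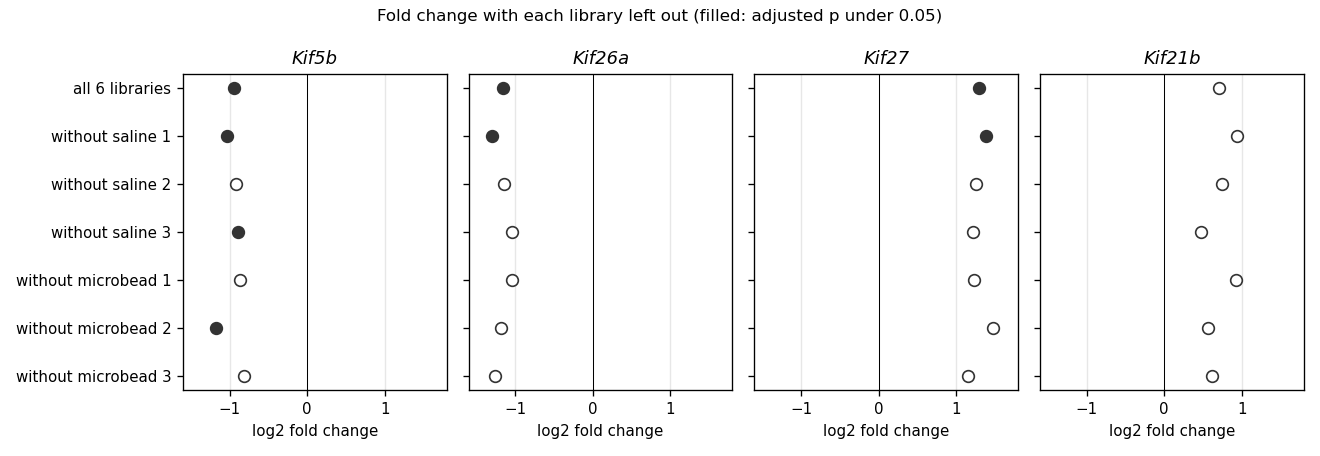
Log2 fold change of Kif5b, Kif26a, Kif27 and Kif21b with all 6 libraries and with each library left out in turn, filled where the adjusted p-value was under 0.05. Direction held for these 4 genes in the 6 fits, the call held in 3 of 6 fits for Kif5b and in 1 of 6 for Kif26a and for Kif27, and Kif21b was not called in any.

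Some markers of cell types were called as well, where 12.8% of all genes tested were called. The share called was 12.5% of the rod, 16.7% of the cone, 25% of the Müller glia and 50% of the endothelial markers. None of the bipolar, amacrine, microglia or pigment epithelium markers passed the test. Of the endothelial markers, 3 of 6 (Esam, Cldn5 and Flt1) were called lower after microbead injection, with sums of 447, 461 and 641 CPM in the saline against 291, 421 and 275 CPM in the microbead retinas. Of the Müller glia markers, 2 of 8 (Dkk3 and Vim) were called lower and 7 of 8 log2 fold changes were negative, with overlapping sums of 6776 ± 1999 CPM in the saline and 5145 ± 515 CPM in the microbead retinas. Among the rod markers Nrl was called lower and 7 of 8 values were negative, again with overlapping sums, and among the cone markers Arr3 was called higher. The 3 horizontal cell markers had a median log2 fold change of -0.97 and none passed the test. Kif5b is made in most cell types, and the part of these markers in its level was not tested. None of the 10 RGC markers passed the test, and their sum was 935 ± 512 CPM in the saline and 1096 ± 172 CPM in the microbead retinas (SD, n = 3 each).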

How the data were processed

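Poly(A) RNA was sequenced from retina in 3 saline and 3 microbead libraries, grouped by the treatment in the sample labels. The authors aligned reads with STAR 2.5.3a to GRCm38.p5 with GENCODE vM12, counted them per gene with featureCounts 1.15.2 and deposited raw counts. Strand and multi-mapping settings are not given in the sources used here. The deposited table also holds the authors' own DESeq2 1.14 comparison, as a mean normalized signal, a log2 fold change, a linear fold change (ratio), a p-value, an adjusted p-value and a mark for their calls, none of which was used.

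The filterByExpr filter (minimum count 10, minimum total 15) kept all 32 Kif genes. Libraries were scaled by TMM and the groups tested, two-sided, by the quasi-likelihood method in edgeR 4.0.16 (R 4.3.3), with Benjamini-Hochberg adjustment over 17707 genes and a threshold of 0.05. The standard error is the log2 fold change divided by the root of the F statistic. CPM are counts per 1000000 of the scaled library size. In the smallest library 3 counts make 0.217 CPM and in the largest 0.0622 CPM, for counting error only. Chi-square per degree of freedom between libraries of a group was 20.1 or more, so they differed by more than counting error. Whether they came from separate animals cannot be told from this value. Gene positions, exon lengths and overlaps came from GENCODE vM21 and promoters from RefSeq. Shares were compared by exact permutation in scipy 1.17.1. Steps were tested on simulated data.

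The Kif genes, roles and gene lists were chosen with earlier results of these data known. Named were called Kif genes, the 8 highest per kilobase, the paralogs, up to 4 called genes of each list, and Klc1, Klc2, Kifap3 and Dync1h1; other genes were named after their values were seen. Alternatives were RLE, upper-quartile scaling, DESeq2 1.42.0, voom of limma 3.58.1, no filter, a minimum of 10 counts per library, sizes leaving out the 100 most abundant genes, the replicate number as a block, GC and length as an offset (splines, 5 degrees of freedom) with and without that block, a threshold of 0.01, each library left out, and the version 4 quasi-likelihood of edgeR, which was chosen after seeing the data.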

Additional observations from a re-analysis of the deposited data

How the results depend on the processing

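Over 11 alternative fits with all 6 libraries, Kif5b was called in 11 (adjusted p = 0.000618 to 0.0477), and Kif26a and Kif27 in 8 each (0.00488 to 0.108 and 0.00725 to 0.0833). The number of genes called, 2261, was 3720 without the filter, 3582 with DESeq2, 905 with the replicate block, 1243 with the GC content and length offset and the block, and 87 at an adjusted p-value under 0.01. With the 100 most abundant genes kept out of the library sizes, 2010 were called, 1166 higher and 844 lower, where the reported test had 1143 and 1118. Leaving out 1 library gave 46 (without microbead retina 3) to 2621 (without saline retina 1), with 293 without saline retina 2, 1480 without saline retina 3, 748 without microbead retina 1 and 768 without microbead retina 2. Of the 32 Kif genes, 1 was called with the block, 1 with the offset and the block, and 0 at 0.01, and 0 to 4 with 1 library left out, with Kif26b as the fourth. Their median log2 fold change lay between -0.20 and -0.03 over those fits.

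The deviations of same-numbered retinas from their group means had correlations of -0.035, 0.136 and 0.01. Those of differently numbered retinas ran from -0.196 to 0.143. With 3 libraries a group, these values cannot settle whether the numbers pair the samples. With the replicate block, Kif26a (adjusted p = 0.0594) and Kif27 (0.0833) lost their calls, and Kif5b kept its own.

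Log2 fold changes near 0 changed sign. Kif3a, -0.01, was 0.01 with RLE or DESeq2, 0.04 with upper-quartile scaling, 0.06 without the 100 most abundant genes and 0.00 with voom, the block or at least 10 counts in every library, and -0.13 to 0.14 with 1 library left out. Kif16b was 0.01 with the offset, alone or with the block. Without the filter Kif5a was -0.02 and Kif9 -0.01. With 1 library left out, Kif5a ran from -0.34 to 0.35, Kif9 from -0.11 to 0.35 and Kif1c from -0.30 to 0.01. Shares from CPM not divided by length differed by 0.158 percentage points for Kif5c and 0.224 for Kif3b, and with 1 library left out the differences ran from -4.1 to 1.68 for Kif5c, -5.45 to 2.52 for Kif1a, -3.69 to 3.67 for Kif1b and -3.98 to 1.67 for Kif3b. Kif6, Kif23 and Kif24 could not be fitted where 10 counts were required in every library. At under 1 CPM, Kif23 rests on few counts, and the microbead libraries are the shallower.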
